A study of Rattus norvegicus with 6 samples.

Results

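The secretory calcium-binding phosphoprotein (SCPP) genes encode secreted proteins of milk, enamel and bone, many of them acidic or phosphorylated. The set taken here holds 10 genes: the caseins Csn3 and Csn2, the enamel and dental epithelium genes Odam, Amtn, Ambn and Enam, and the bone genes Spp1, Ibsp, Dmp1 and Mepe. They were matched by gene symbol, and 9 of the 10 were found among the 18923 genes listed for each sample. The expression of Enam was not analysed here, and its promoter sequence was. The family was chosen from its gene membership with the difference of Csn3 and Spp1 between the groups already known. The values of the members between groups are therefore given as a description. Where a member is said to meet the DEG thresholds, that records the outcome of the fit over all genes and is no independent evidence.

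RNA was sequenced from wild-type primary chondrocytes, the cells of cartilage, isolated from female Sprague-Dawley rats aged 24 h and used at passage 1 or 2. The 3 CON samples were kept for 24 h in high-glucose DMEM with fetal bovine serum. The 3 RA samples had the same medium with 1 µM all-trans retinoic acid for 24 h, and no vehicle is named for the CON cells. The study describes its replicates as biologically independent. Which animals gave which sample, and whether animals were pooled, is not given in the sources used here, so p-values measure the spread between these samples.

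SCPP proteins are secreted, and many are rich in acidic or phosphorylated residues and bind calcium. In milk the caseins hold calcium phosphate in micelles, and in bone and teeth their relatives bind the growing mineral or the cells around it. Their genes arose by tandem duplication and most still lie in clusters on a single chromosome, with amelogenin on the X chromosome as an exception, and the bone members are known in cartilage chiefly from the late, hypertrophic stage that precedes mineralization. All-trans retinoic acid acts on genes through nuclear receptors that bind paired short repeats in DNA.

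The sequences before the start sites are shown first for Csn3, for Ibsp and for Cyp26a1, the retinoic acid-degrading enzyme whose values over the 6 samples were the most like those of Csn3. They are the 250 bases before each start in RefSeq, build GRCr8, printed 5′ to 3′ on the gene's strand with motif matches in capitals. Csn3 lies on the minus strand (chr14:20439831-20440080), as does Ibsp (chr14:5757243-5757492), and Cyp26a1 lies on the plus strand (chr1:244883572-244883821).
Csn3: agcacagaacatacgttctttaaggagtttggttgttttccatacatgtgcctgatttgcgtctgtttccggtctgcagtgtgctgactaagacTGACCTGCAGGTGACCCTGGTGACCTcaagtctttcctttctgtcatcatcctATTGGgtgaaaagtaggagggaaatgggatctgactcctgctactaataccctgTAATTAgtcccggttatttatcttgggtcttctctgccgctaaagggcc
Cyp26a1: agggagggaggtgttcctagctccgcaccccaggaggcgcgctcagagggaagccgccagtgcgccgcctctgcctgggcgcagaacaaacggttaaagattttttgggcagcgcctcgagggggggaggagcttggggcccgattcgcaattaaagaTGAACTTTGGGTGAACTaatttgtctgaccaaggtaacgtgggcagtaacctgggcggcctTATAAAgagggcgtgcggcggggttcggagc
Ibsp: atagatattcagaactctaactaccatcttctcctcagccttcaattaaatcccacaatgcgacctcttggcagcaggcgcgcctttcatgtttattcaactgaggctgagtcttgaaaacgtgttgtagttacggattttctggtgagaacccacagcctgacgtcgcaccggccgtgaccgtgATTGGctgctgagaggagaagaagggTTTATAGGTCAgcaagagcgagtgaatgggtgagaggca

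The search covered both strands of 33469 rat promoters. The nuclear receptor half-site was spelled AGGTCA or AGTTCA or GGGTCA or GGTTCA, and it was also sought as a direct repeat with 1, 2, 3 or 5 bases between the copies. The Csn3 sequence held a direct repeat spaced by 5 from position -156 to -140, counted back from the start, and a repeat spaced by 3 from -145 to -131. Both repeats share the middle half-site, lie on the opposite strand and form the first capital run of the Csn3 line. A repeat spaced by 5 was found in 109 promoters, 0.326% of all, and one spaced by 3 in 0.0926%. Csn3 was the member that held either. The Cyp26a1 sequence held a repeat spaced by 5 from -92 to -76. Of the 6 genes with such a repeat that could be tested, 2 were higher in RA beyond the thresholds given below, Csn3 and Cyp26a1, and the other 4 were not called. Among all 9802 tested genes with a promoter in the table, 2.49% were higher. The Csn3 difference is part of what chose the set, so nothing is read from this count.

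A single half-site was found in 3 members, Csn3, Enam and Ibsp, against 39.1% of all promoters. The STAT palindrome TTCNNNGAA was found in Csn2, at -97 to -89, against 7.67% of promoters. The RUNX core ACCACA was found in Csn2 and Mepe, the AP-1 site TGANTCA in Mepe and Odam, and the homeodomain core TAATTA in Csn3 and Mepe. The shares of all promoters were 14.5% for the RUNX core, 6.34% for the AP-1 site and 4.86% for the homeodomain core. The TATA box TATAAA was found in Ibsp, where it is inverted and shares 1 base with the half-site, and in Spp1 far upstream at -204, against 12.9% of promoters. The Spp1 sequence held no other match and the Dmp1 sequence held none. Such matches are letters in a window and not measured binding.

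**Figure D1:**
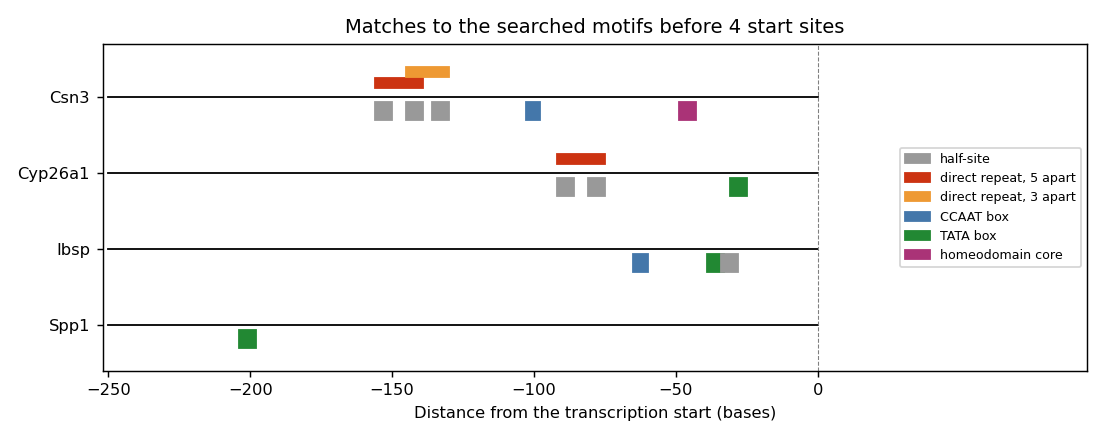
Matches before the start sites of Csn3, Cyp26a1, Ibsp and Spp1, by distance from the start in bases. Boxes below a line are single matches and bars above it are direct repeats of the half-site, which appear for Csn3 and Cyp26a1.

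The members also shared a CCAAT box. Read on both strands, it was found in 8 of the 10 members, all but Spp1 and Dmp1, against 34.0% of all promoters. In each of these 8 it was inverted, as ATTGG. In Odam, Amtn, Ambn, Enam, Ibsp and Mepe it lay between positions -69 and -49, a stretch chosen after the matches were seen. An inverted box in that stretch was found in 2.09% of all promoters. The genes of a family formed by duplication are not independent, so no test is given. The box is in capitals in the lines that follow, each with 15 bases on either side, on the minus strand of GRCr8. Ambn held a second inverted box in the same stretch, which is in lower case here.
Odam (chr14:20481801-20481835): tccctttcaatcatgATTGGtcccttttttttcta
Amtn (chr14:19945270-19945304): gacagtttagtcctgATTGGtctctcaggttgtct
Ambn (chr14:19898468-19898502): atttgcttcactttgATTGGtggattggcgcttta
Enam (chr14:19865526-19865560): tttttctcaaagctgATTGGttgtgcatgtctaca
Ibsp (chr14:5757288-5757322): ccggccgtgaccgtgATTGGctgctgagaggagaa
Mepe (chr14:5736892-5736926): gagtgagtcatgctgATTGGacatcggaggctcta

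Library totals ran from 30170909 to 38007486 reads in CON and from 29370025 to 30952882 in RA. The floor used here was 3 reads in a sample, which is 0.0789 to 0.102 CPM, the read count scaled to a common library total. CON sample 1 stood apart from the other CON samples. Its counts differed from theirs with a chi-square per degree of freedom of 39.6 and 63.3, against 6.53 to 8.25 for the other pairs within a group. Member values are therefore also given without it. Genes with too few reads were set aside, which left 13438 to be tested. Of these, 667 (4.96%) were DEGs, called at an adjusted p under 0.05 where the log2 fold change also exceeded 0.58 either way. In RA 359 genes were higher (2.67% of those tested) and 308 were lower (2.29%).

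Among the members, Csn3, Spp1 and Ibsp passed the filter, and all 3 met the DEG thresholds with higher values in RA, where 4.96% of all tested genes were DEGs and 2.67% were higher. Csn3 passed the filter only through the RA samples, so it had to differ, and nothing is read from this count. Dmp1, Mepe, Csn2, Odam, Amtn and Ambn were listed but had too few reads to be tested. In 4 of the 9 listed members, Csn3, Spp1, Ibsp and Dmp1, every RA sample lay above every CON sample in CPM. Such an order was seen in 18.9% of the tested genes and in 14.7% of all genes with a read.

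Spp1 encodes osteopontin, a bone matrix protein and cytokine that binds integrins and CD44. Its level per length was 845, 919 and 821 FPKM in CON and 3300, 3059 and 3264 FPKM in RA. The 3 RA samples lay within a narrow band, far above the CON band. In reads, the counts were 39400, 42106 and 47370 in CON and 148826, 136461 and 153463 in RA. Spp1 thus took 0.125% to 0.140% of all reads in CON and 0.465% to 0.501% in RA. By FPKM it ranked 61st to 70th of the listed genes in CON and 11th to 13th in RA. The log2 fold change was 1.88 (SE 0.056), and it was 1.87 without CON sample 1. Its coefficient of variation between samples was 5.94% in CON and 4.06% in RA, the tightest of the members. Spp1 made up at least 99.82% of the summed FPKM of the listed members in each sample. In bulk samples such as these, more cells of a type and more RNA per cell cannot be told apart, and this holds for each value that follows.

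Ibsp encodes bone sialoprotein, which binds hydroxyapatite and integrins and marks the onset of mineralization. Its counts were 40, 29 and 35 in CON and 76, 79 and 113 in RA. The groups did not overlap, with RA sample 3 the highest. The levels were 0.675, 0.498 and 0.477 FPKM in CON and 1.33, 1.39 and 1.89 FPKM in RA, so that Ibsp stayed far below Spp1 per length in each group. The log2 fold change was 1.47 (SE 0.239). It was 1.64 without CON sample 1, the highest of the CON samples.

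Dmp1 encodes an acidic matrix protein of osteocytes and odontoblasts that binds calcium and nucleates mineral. Its counts were 4, 2 and 2 in CON and 14, 5 and 27 in RA. Only 2 samples, both RA, reached the level of the filter, and the gene was not tested. The RA samples were spread widely, with a coefficient of variation of 69.8%, and RA sample 2 lay near CON sample 1 in CPM, at 0.170 against 0.13. The summed counts of 8 and 46 reads gave a ratio of RA to CON of 6.32 per read sequenced (95% exact interval 2.95 to 15.5, counting error only). Dmp1 entered the fit and met the thresholds when CON sample 1 or RA sample 2 was left out, with log2 fold changes of 3.01 and 2.98. It entered but did not meet them without CON sample 2 (2.45), without CON sample 3 (2.31) or with no filter (2.57). Where the filter was used, Dmp1 passed it only through RA samples, so nothing is read from these calls.

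Mepe encodes a matrix protein of osteocytes whose acidic fragment inhibits mineralization. A single read was counted in CON, in sample 2, and 5 in RA, 4 of them in sample 1. The ratio of 5.49 had an interval from 0.615 to 260, so no difference was detectable at this depth.

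Csn3 encodes κ-casein, the protein that coats and stabilizes the casein micelle of milk. Its counts were 3, 1 and 4 in CON and 95, 49 and 74 in RA. In CPM these are 0.0977, 0.0331 and 0.105 in CON, a level set by 1 to 4 reads, and 3.20, 1.67 and 2.39 in RA. Every RA sample lay far above the CON samples, with RA sample 1 the highest and RA sample 2 the lowest of their group. The summed counts of 8 and 218 gave a ratio of 29.9 per read sequenced (95% exact interval 14.9 to 70.2, counting error only). The log2 fold change was 4.83 (SE 0.439), and leaving out each sample in turn gave 4.50 to 5.11, with 4.96 without CON sample 1. Of all tested genes, 3 had a higher log2 fold change. The fold depends on the scale, since the CON counts are so few. On log2(FPKM + 0.1) the difference was 3.95 and on log2(FPKM + 1) it was 1.83.

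The level of Csn3 remained modest in RA. Its mean was 0.0966 ± 0.0486 FPKM in CON and 2.97 ± 0.940 FPKM in RA (SD, n = 3). It ranked between 13908th and 15309th of the listed genes by FPKM in CON and between 9004th and 10291st in RA. In RA, Csn3 thus lay above Ibsp in FPKM in each sample, while in CON it lay below it in each.

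Csn2 encodes β-casein, the main micelle protein of rodent milk. It had 0, 2 and 3 reads in CON and none in RA. Both groups were at or under the floor of 3 reads per sample, so no fold is given. The exact 95% interval of the ratio of RA to CON reached at most 1.20 for Csn2. That limit rests on 5 CON reads and covers counting error only, so it is not set against the ratio of Csn3.

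Odam encodes a protein of the junction between tooth and gum and of maturing enamel. Its counts were 1, 4 and 1 in CON and 6, 5 and 4 in RA. The groups overlapped, since CON sample 2 lay above RA sample 3 in CPM. The ratio of 2.75 had an interval from 1.01 to 8.64 for counting error alone.

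Amtn encodes amelotin, also of maturing enamel. It had 2, 0 and 3 reads in CON and 6, 0 and 0 in RA, so that a single RA sample held all of its RA reads. Ambn encodes ameloblastin, a structural protein of forming enamel, and had no read in CON and 2 in RA, both in sample 2. For Amtn and Ambn no difference between the groups was detectable at this depth.

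**Figure D2:**
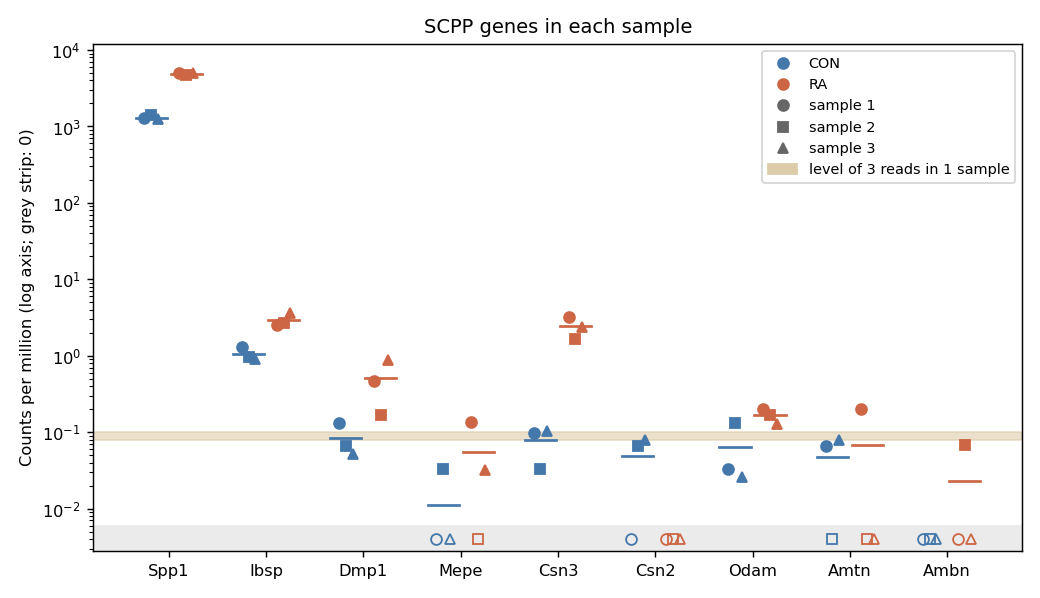
CPM of the 9 listed members in each sample on a log axis, with CON in blue, RA in red, a line at each group mean and open symbols at 0. The tan band is the level of 3 reads in 1 sample. Spp1, Ibsp, Dmp1 and Csn3 separate by group, and the CON values of Csn3 lie under, in or just above the band.

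Samples did not keep a single order across the members. Among RA samples, sample 2 was the lowest for Csn3, Spp1 and Dmp1, sample 1 was the highest for Csn3 and Spp1 in CPM, and sample 3 was the highest for Ibsp and Dmp1.

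The genes nearest to each member were sought by the root mean square difference of centred log2 CPM over the 6 samples, which favours genes with a like size of change between the groups. For Csn3 the nearest were Cyp26a1 at 0.467, AABR07039236.1 at 0.648 and Rnf183, an E3 ubiquitin ligase, at 0.667. Cyp26a1 rose with a log2 fold change of 3.35, from 0.389 to 4.01 FPKM. AABR07039236.1 was listed with no read in CON and 14 in each RA sample. For Spp1 the nearest were Hmga1, an architectural chromatin protein, at 0.0765, the keratin Krt79 at 0.0779 and Pax1, a transcription factor of the vertebral column, at 0.0947. Hmga1 rose with a log2 fold change of 1.98, from 215 to 854 FPKM. For Ibsp they were the metalloreductase Steap4 at 0.148, the chemokine Ccl2 at 0.166 and the heparan sulfate-modifying enzyme Ndst3 at 0.182, with log2 fold changes of 1.21 to 1.23.

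The members lie in a pair of runs on chromosome 14 in the RefSeq table. One run holds Spp1, Mepe, Ibsp and Dmp1 in that order, and the other holds Enam, Ambn, Amtn, Csn3, Odam and Csn2. Of the 42 other genes inside these runs or within 5 protein-coding genes of them, 10 were listed and 8 tested. All 10 lie outside the runs, on either side. No other gene between the members was measured, those around Csn3 included, so the counts describe the flanks only. None of the 8 was higher in RA, against 2.67% of all tested genes, and 1 was lower, against 2.29%. Their median log2 fold change was -0.08, and that of all tested genes was -0.01. The one that fell was Hsd17b11, a steroid dehydrogenase past the far end of the Spp1 run. Its log2 fold change was -0.67 (SE 0.0739, edgeR adjusted p = 9.21e-04), with a mean of 55.8 FPKM in CON and 35.5 in RA. Pkd2, the polycystin gene next to Spp1, had a log2 fold change of 0.33 (adjusted p = 0.00814), short of the fold threshold. Grsf1, Rufy3 and Utp3, which lie before the start of the other run, had log2 fold changes of -0.16, -0.08 and -0.08. Sparcl1, a relative of Sparc that lies past Dmp1 and Dspp, had -0.50 (SE 0.355) on 88 reads in CON and 56 in RA. Jchain and Sult1d1 had too few reads to be tested.

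**Figure D3:**
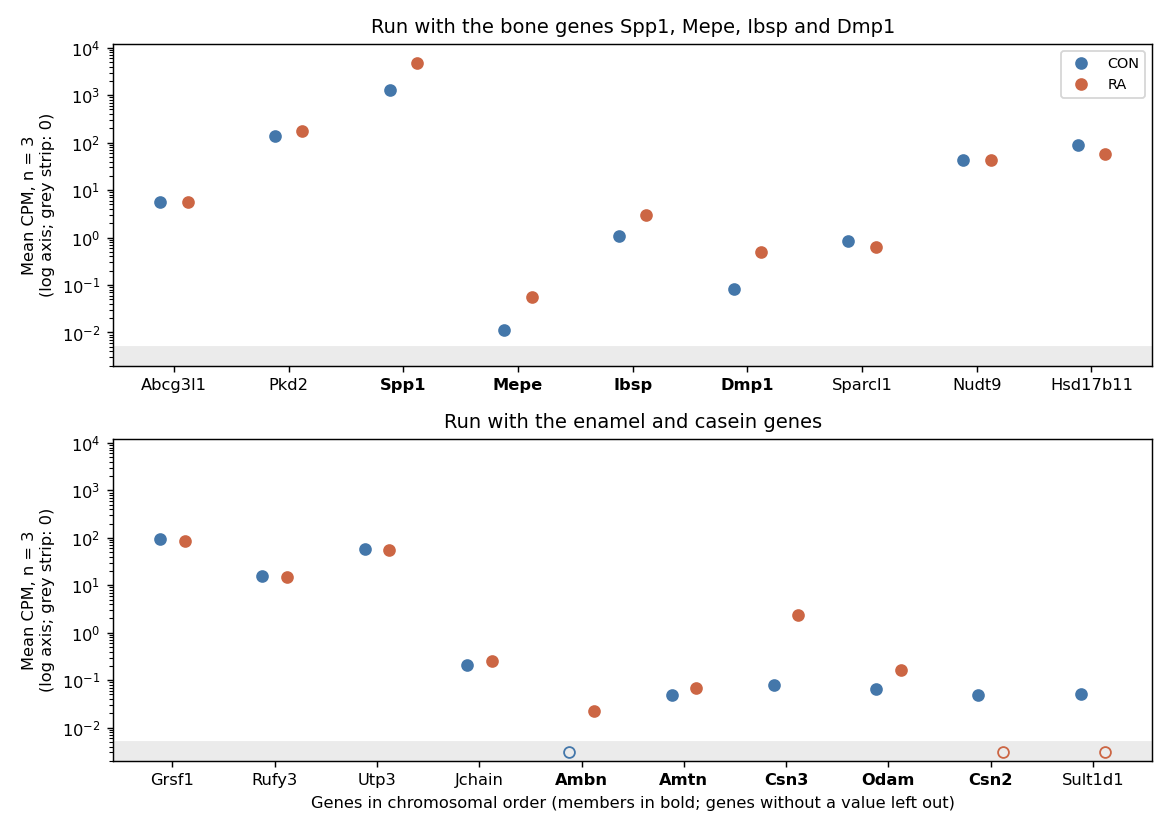
Mean CPM of the listed genes along both runs of chromosome 14, in gene order and on a log axis, for CON (blue) and RA (red), n = 3 each, with open symbols at 0. Spp1, Ibsp, Dmp1 and Csn3 are higher in RA. Among the flanking genes, Abcg3l1, Nudt9, Grsf1, Rufy3 and Utp3 nearly coincide, Pkd2 lies somewhat higher in RA, and Hsd17b11 and Sparcl1 lie lower.

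Of 10 relatives taken from outside the set, only Sparc and Sparcl1 were listed, and neither was called. That list did not hold Amelx, the SCPP gene of amelogenin, the main protein of forming enamel, which is named here after its values were seen. Amelx had 14, 7 and 5 reads in CON and 0, 4 and 3 in RA and was not tested. Its CON values were mostly the higher ones, against the direction of Csn3 and Spp1, but the groups overlapped, since RA sample 2 lay just above CON sample 3 in FPKM. Sparc encodes osteonectin, from whose lineage the SCPP genes are thought to derive, and stood at 4068 ± 97.3 FPKM in CON and 3737 ± 113 in RA (log2 fold change -0.14, adjusted p = 0.116).

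Of 11 receptors for SCPP proteins, 10 were tested and 7 of these were not called. In RA 2 were higher, where 2.67% of all tested genes were, and 1 was lower, where 2.29% were, and the median log2 fold change was 0.15. Itga8, an integrin chain that binds osteopontin, rose from 3.30 ± 0.343 to 8.61 ± 0.554 FPKM (log2 fold change 1.37, SE 0.091, adjusted p = 7.66e-05). Cd44, the hyaluronan receptor, rose from 33.2 to 51.3 FPKM (0.62, SE 0.0597, adjusted p = 4.36e-04), close to the fold threshold. Itga9, another osteopontin-binding chain, fell from 3.64 to 1.86 FPKM (-0.98, SE 0.116, adjusted p = 0.00136). The more abundant chains stayed within the fold threshold: Itgb1, at 362 and 440 FPKM, had a log2 fold change of 0.27 (adjusted p = 0.0399), and Itgav, at 45.1 and 55.8 FPKM, had 0.29 (adjusted p = 0.00975).

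Enzymes that phosphorylate, cleave or crosslink SCPP proteins included 5 genes that were higher in RA and none that was lower, of 10 tested and 14 listed, with a median log2 fold change of 0.84. Over all tested genes 2.67% were higher and 2.29% lower. Fam20c, the Golgi kinase that phosphorylates caseins, osteopontin and their relatives, had 1375, 1993 and 2567 reads in CON and 3682, 3710 and 4109 in RA. All RA samples lay above CON, and CON sample 1 was the lowest. Fam20c rose from 20.0 ± 4.29 to 43.0 ± 1.53 FPKM (log2 fold change 1.09, SE 0.146, adjusted p = 0.00243), and by 0.92 without CON sample 1. Fam20a, the pseudokinase that activates Fam20c, rose from 1.13 to 2.70 FPKM (1.24, SE 0.150, adjusted p = 0.00141). Fam20b, a xylose kinase of the same family that acts on proteoglycans, had a log2 fold change of -0.14 (adjusted p = 0.211). The metalloproteinases Mmp9 and Mmp3, which cleave osteopontin, rose by log2 fold changes of 2.88 (SE 0.380, adjusted p = 0.00231) and 1.02 (SE 0.129, adjusted p = 0.0018). Mmp9 was low, at 0.134 FPKM in CON and 0.976 in RA, and its difference on log2(FPKM + 1) was 0.80. The fifth was the crosslinking enzyme Tgm2, at 0.91 (adjusted p = 0.0106, and 0.0574 without RA sample 3). Phex, the peptidase that degrades the acidic fragment of Mepe, had 2 to 12 reads per sample and was not called. The enamel protease Klk4 had 5 reads in CON and 1 in RA, Mmp20 had 1 and none, and Mmp7 had no read at all. These low genes and those of the next groups, where not called, are named outside the rule stated in the methods, after their values were seen.

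Genes that work on mineral beside the SCPP proteins gave 2 higher and none lower of 7 tested, with a median log2 fold change of 0.32, where 2.67% of all tested genes were higher and 2.29% lower. Ankh, which exports ATP and so raises extracellular pyrophosphate, an inhibitor of mineral, rose from 33.4 ± 0.347 to 71.7 ± 2.20 FPKM (log2 fold change 1.09, SE 0.0564, adjusted p = 2.38e-05). Mgp, the matrix Gla protein that also inhibits mineral, rose from 1788 to 2906 FPKM (0.69, SE 0.0556, adjusted p = 1.88e-04). Alpl, the phosphatase that breaks down pyrophosphate, had a log2 fold change of -0.42 (adjusted p = 0.0219), short of the fold threshold. Bglap, the osteoblast hormone osteocalcin, had 11 reads in CON and 9 in RA.

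Transcription factors of bone and tooth gave 1 higher and 1 lower of 9 tested, with a median of -0.02, beside the same 2.67% and 2.29% of all tested genes. Both were distal-less homeobox genes, which act in bone and tooth. Dlx3 rose from 0.800 to 1.97 FPKM (log2 fold change 1.28, SE 0.212, adjusted p = 0.00688), while Dlx5 fell from 13.8 to 7.50 FPKM (-0.89, SE 0.0937, adjusted p = 7.23e-04). Runx2, the main regulator of hypertrophy and of osteoblasts, had a log2 fold change of 0.22 (adjusted p = 0.158).

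Regulators of casein genes in the mammary gland were not called in either direction, of 8 tested, beside 2.67% higher and 2.29% lower over all tested genes, and their median log2 fold change was -0.0016. Stat5a, which carries the prolactin signal to casein promoters, was at 9.05 FPKM in CON and 9.38 in RA. Prlr, the prolactin receptor, had 2 reads in CON and 2 in RA, and Elf5, the alveolar transcription factor, had 4 and 6.

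Retinoid response genes gave 6 higher and 1 lower of 10 tested, with a median of 0.77, where 2.67% of all tested genes were higher and 2.29% lower. Cyp26a1 had 31, 13 and 25 reads in CON and 248, 183 and 218 in RA. Like Csn3 it was highest in RA sample 1 and lowest in RA sample 2. Spp1 had the same order in CPM, while Cyp26b1 was not highest in RA sample 1. Cyp26b1 rose from 1.51 to 9.52 FPKM, and Rarb, a retinoic acid receptor, was at 0.237 and 0.637 FPKM, with an adjusted p of 0.0494 that exceeded 0.05 when any single sample other than CON sample 1 was left out (0.0866 to 0.197).

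**Figure D4:**
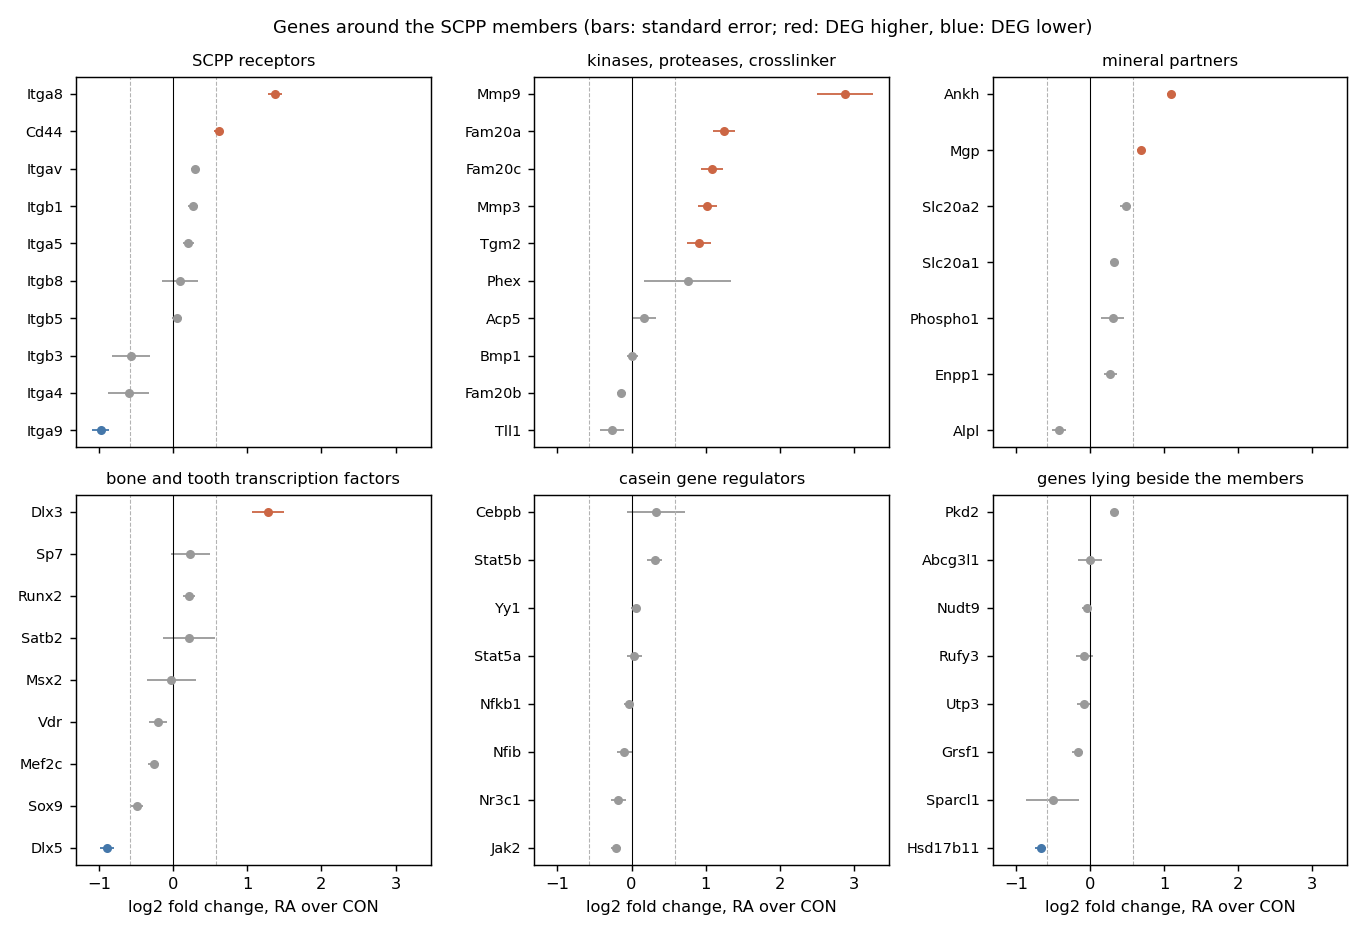
Log2 fold changes of RA over CON with standard errors for the tested genes of 6 lists around the members, with DEGs higher in RA in red and lower in blue and dashed lines at 0.58 either way. Mmp9, Fam20a, Fam20c, Ankh, Itga8 and Dlx3 lie above the upper line, and no casein gene regulator passes either line.

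Chondrocyte markers were abundant in each sample. Col2a1, Col11a1 and Acan, the main cartilage collagens and proteoglycan, stood at 5420, 1364 and 718 FPKM in CON and 3185, 908 and 254 FPKM in RA. Of 10 chondrocyte markers 8 were lower in RA and none was higher, where 2.29% of all tested genes were lower. Col11a1 did not reach the fold threshold without CON sample 1 (-0.56). The summed level of the list ran from 40350 to 48530 CPM in CON and from 25100 to 26590 CPM in RA.

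Markers of hypertrophic chondrocytes, the cells in which Spp1 and Ibsp are known in cartilage, did not share a direction. Of 6 tested, 2 were higher and 1 was lower, beside 2.67% and 2.29% of all tested genes, and the median log2 fold change was -0.10. The collagenase Mmp13 rose from 50.9 to 246 FPKM. The collagen gene Col10a1 rose by a log2 fold change of 2.16, but only from 0.198 to 0.890 FPKM. The channel gene Panx3 fell, with -1.91, from 0.450 to 0.119 FPKM. The signal Ihh had -1.63, on 62 reads in CON and 18 in RA, and was not called. Alpl and Runx2 had -0.42 and 0.22. Col10a1, Panx3 and Ihh were named after their values were seen. The call of Panx3 was lost without CON sample 2 or any single RA sample (adjusted p from 0.0595 to 0.111), and Ihh was called without CON sample 1 (adjusted p = 0.0473). The summed level of the list was 147 to 207 CPM in CON and 620 to 720 CPM in RA, and most of it was Mmp13. Their part in the Spp1 and Ibsp values was not tested.

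Markers of osteoblasts and osteocytes summed to 14400 to 20170 CPM in CON and 19930 to 21240 CPM in RA, nearly all of it Col1a1, at 2976 and 3478 FPKM. None of the 6 tested was called, and Bglap was near 0. For ameloblasts and odontoblasts the sums were 1.99 to 3.00 CPM in CON and 5.17 to 5.65 CPM in RA, which is chiefly Dlx3. Of that list, Amelx had 26 reads in CON and 7 in RA, and Klk4 and Mmp20 were near 0. Macrophage and osteoclast markers, of cells that also make osteopontin, gave 66.3 to 72.5 CPM in CON and 68.9 to 73.3 CPM in RA, led by Ctsk, Cd14 and Acp5. None of their 6 tested genes was called. The leukocyte gene Ptprc had 8 reads in CON and 5 in RA, Adgre1 had a single read, and Calcr had none.

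Markers of mammary and other secretory epithelium were low in each sample. Their summed level was 9.67 to 10.6 CPM in CON and 7.78 to 9.19 CPM in RA, of which Krt8 made up 85.2% to 87.7% in CON and 73.2% to 83.3% in RA, and none of the 3 tested was called. Wap, a whey protein gene, had 1 read over the 6 samples, while Krt14 had 3 and Cldn3 had 5. Of the tested ones, Krt8 was at 4.50 and 3.43 FPKM, Epcam at 0.560 and 0.660 FPKM and Krt18 at 0.239 and 0.360 FPKM in CON and RA.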

How the data were processed

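Poly(A) RNA libraries of 3 CON and 3 RA samples were sequenced on an Illumina instrument. The submitters' processing notes name HISAT2, HTSeq 0.13.5 and the build Rnor_6.0. The annotation and the strand setting are not given in the sources used here, so overlapping genes and near-identical copies could share reads. The authors deposited whole-number counts per gene for each sample. The deposited tables also hold FPKM, which the authors scaled by gene length and library total.

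Counts were tested with edgeR 4.0.16 in R 4.3.3 (glmQLFit and glmQLFTest, TMM, filterByExpr with a minimum count of 10, no covariates), with Benjamini-Hochberg adjustment over all genes tested. The same steps were tested on simulated data. DEGs were called at an adjusted p under 0.05 where the log2 fold change also exceeded 0.58 either way. CPM is the count scaled to a common library total. FPKM values are mean ± SD (n = 3). Ratios of summed counts have exact Clopper-Pearson 95% intervals, which cover counting error only.

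The members and lists were chosen with earlier results of these data known. Genes named by rule were the members, up to 4 DEGs of each list and of the neighbouring genes, the 3 most abundant markers of each cell type and those at 0, and the 3 genes most like each member that was a DEG. Promoters and gene order came from RefSeq GRCr8, whose coordinates are not those of Rnor_6.0. Alternatives were DESeq2 1.42.0, limma 3.58.1 on log2 FPKM with pseudocounts of 0.1 and 1, other scaling and filters, a replicate block, other thresholds and leaving out each sample. The values of 1 gene of the retinoid response list are not reported here.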

Additional observations from a re-analysis of the deposited data

How the results depend on the processing

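The members were chosen with differences of these samples known and Csn3 passed the filter only through RA, so the settings describe their values and lend them no support. Csn3, Spp1 and Ibsp met the thresholds under the alternatives run. Dmp1 also met them without CON sample 1 or RA sample 2, where it passed the filter only through RA samples. The total of 667 DEGs became 434 with limma on log2(FPKM + 1), 1319 with the adjusted p alone and 1017 with the unadjusted p and the fold threshold. It ran from 480 to 755 when each sample was left out. With the adjusted p alone, 2 genes beside the members passed in place of 1, with Pkd2 added, as did 5 receptors in place of 3 and 5 mineral partners in place of 2. Acp5, which was not called, had a log2 fold change of 0.17 with all samples and from -0.0011, without CON sample 1, to 0.28 when each sample was left out. With the replicate number as a block 684 genes were DEGs. Same-numbered samples did not deviate together (correlations 0.0928, -0.0123 and 0.0118), so the numbers were not taken to pair them. Rarb missed the threshold under the block (adjusted p = 0.0526). Mepe, Csn2, Odam, Amtn and Ambn had 15 reads or fewer per group, which limits what can be said of them to the counts and intervals given.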
